A study of Mus musculus with 6 samples.

Results

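A set of 10 genes was read as a group, namely the core loop of the circadian clock and its output factor Dbp: Arntl (also written Bmal1), Clock, Per1, Per2, Per3, Cry1, Cry2, Nr1d1, Nr1d2 and Dbp. They were chosen by symbol, each matched 1 row of the deposited table by its Ensembl gene identifier, and they are 10 of 54281 genes. The samples were 6 wells of GLUTag cells, a murine enteroendocrine cell line that serves as a model of the intestinal L-cell, and all were grown under one condition. Wells were grown for 48 h in medium with 1 g/L glucose and 10% FBS, 3 of them at passage 23 on plate 1 and 3 at passage 27 on plate 2. Plate and passage therefore cannot be told apart, the wells of a plate share a passage, and the hour of harvest is not given in the sources used here.

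The clock is a transcriptional feedback loop that runs inside single cells with a period of about a day. ARNTL and CLOCK form a heterodimer that binds E-boxes and activates the genes of the period proteins, the cryptochromes, the REV-ERB receptors (Nr1d1, Nr1d2) and DBP. Period proteins and cryptochromes then inhibit the heterodimer, while REV-ERB receptors repress Arntl through ROR elements (ROREs), at which the ROR receptors act as activators. DBP carries the rhythm to other genes through D-boxes. In L-cells the clock is known for daily variation in the secretion of GLP-1. Without a time series, and with no synchronisation described in the sources used here, levels give no phase of this cycle.

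The libraries were made from the 3′ ends of polyadenylated transcripts, where a transcript gives its counts whatever its length, and levels of different genes can be compared as counts scaled to the library total (CPM). Totals lay between 21399987 and 36488198 counts. Libraries of plate 1 are given in the order of replicates 1, 2 and 3, and those of plate 2, whose columns could not be tied to single replicate numbers, in the order of the lowest, middle and highest total. The one with the middle total of 30914501 counts, is called library M from here on. Leaving it out moved the number of genes called between plates from 29 to 1911, and values without it are given where they matter. Among 10 enteroendocrine markers, 9 exceeded 3 counts in every library, with a summed level of 5696 to 7624 CPM, and Pyy was near the floor at 2 to 17 counts. Summed levels were 1.54 to 4.41 CPM for 6 markers of absorptive epithelium, 4.71 to 7.06 CPM for 5 fibroblast markers and 1.37 to 2.99 CPM for 5 blood cell markers. In bulk libraries, fewer cells with a transcript and less RNA per cell cannot be told apart.

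All 10 clock genes were detected in all 6 libraries, at 69 to 2977 counts each. Nr1d2 was highest with 61.3 ± 14 CPM (SD, n = 6) and Nr1d1 lowest with 3.77 ± 0.453 CPM (SD, n = 6), so the extremes of the group are paralogues that encode receptors of one kind. The median level of the 10 genes was 11.9 CPM, against 21.4 CPM over the 12360 genes that reached 1 CPM in every library. Among those genes, Nr1d2 lay at percentile 77.2, Clock at 72.4, Dbp at 52.1 and the other 7 between 10.9 and 39.9. The counting error of a single library is small beside the gap between Nr1d1 and Nr1d2. Nr1d1 at 69 counts in plate 1 replicate 3 had 3.22 CPM with a 95% Wilson interval of 2.55 to 4.08 CPM, and Nr1d2 in the largest library had 81.6 CPM with an interval of 78.7 to 84.6 CPM. Intervals of members at similar levels can overlap, as for Per1 (8.22 to 10.8 CPM) and Per3 (8.14 to 10.7 CPM) in plate 1 replicate 3. All these intervals cover counting error only.

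**Figure D1:**
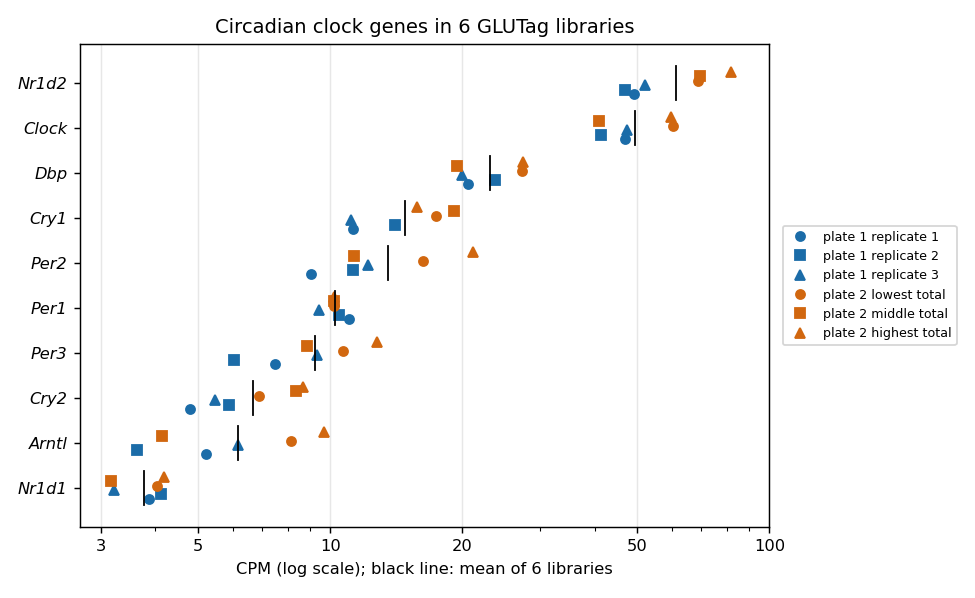
Level of each of the 10 clock genes in CPM (log axis) in each of 6 GLUTag libraries, with plate 1 in blue, plate 2 in orange and the mean of 6 libraries as a black line. Nr1d2 and Clock lie near 50 to 60 CPM on average, and Nr1d1 lies lowest with all 6 libraries between 3.17 and 4.19 CPM.

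Elements known from clock gene promoters were looked for in the promoter windows of RefSeq on GRCm38.p6, each from 250 bases before to 50 bases after a start site, 300 bases in all. A window was found for 9 of the 10 genes, 13 windows in total, with none for Per2. The letters searched on both strands were CACGTG (E-box), CACGTT (a variant E-box), TTATGTAA (D-box), TGACGTCA (cyclic AMP response element) and the RORE consensus. No match overlapped another. Of the windows that hold such an element, 4 are shown 5′ to 3′ on the strand of the gene, with the matches in capitals.

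Arntl, chr7:113207261-113207560, plus strand, RORE in capitals: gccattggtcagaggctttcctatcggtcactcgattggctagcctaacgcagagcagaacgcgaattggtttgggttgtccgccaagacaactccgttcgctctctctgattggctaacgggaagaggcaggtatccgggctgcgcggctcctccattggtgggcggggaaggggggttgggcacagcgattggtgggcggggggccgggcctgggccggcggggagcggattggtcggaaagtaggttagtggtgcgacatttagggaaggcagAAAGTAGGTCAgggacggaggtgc
Per1, chr11:69098699-69098998, plus strand, E-box in capitals: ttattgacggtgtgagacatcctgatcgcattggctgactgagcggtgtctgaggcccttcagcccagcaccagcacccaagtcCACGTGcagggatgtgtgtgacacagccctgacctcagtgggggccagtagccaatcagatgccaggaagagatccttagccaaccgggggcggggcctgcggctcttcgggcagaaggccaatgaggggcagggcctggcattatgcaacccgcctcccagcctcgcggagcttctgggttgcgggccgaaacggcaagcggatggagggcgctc
Cry1, chr10:85185005-85185304, minus strand, variant E-box then E-box in capitals: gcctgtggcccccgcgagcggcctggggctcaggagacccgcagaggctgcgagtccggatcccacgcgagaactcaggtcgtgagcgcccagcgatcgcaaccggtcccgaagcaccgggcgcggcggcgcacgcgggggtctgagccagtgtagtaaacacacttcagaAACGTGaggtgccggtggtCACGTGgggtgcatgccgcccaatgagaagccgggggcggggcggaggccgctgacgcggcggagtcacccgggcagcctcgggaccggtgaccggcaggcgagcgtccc
Per3, chr4:151044616-151044915, minus strand, D-boxes in capitals: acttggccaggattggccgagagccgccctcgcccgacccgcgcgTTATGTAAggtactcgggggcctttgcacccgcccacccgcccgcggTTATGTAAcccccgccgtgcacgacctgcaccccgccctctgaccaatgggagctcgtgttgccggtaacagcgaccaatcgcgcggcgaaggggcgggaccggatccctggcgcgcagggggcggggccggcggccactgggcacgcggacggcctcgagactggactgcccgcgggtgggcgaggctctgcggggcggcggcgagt

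The RORE of Arntl began 26 bases after the start site of this window, and the other Arntl window did not reach it. The E-box of Per1 began 166 bases before its start site. Cry1 held a variant E-box 79 bases and an E-box 60 bases before the start. Per3 held D-boxes at 205 and 158 bases before the start. Variant E-boxes were also present in the windows of Cry2, 166 bases before, and Nr1d1, 28 bases before the start. No window of the members held the cyclic AMP response element. Over all 32851 promoter windows, 7.15% held the E-box, 4.68% the variant E-box, 0.938% the D-box, 0.384% the RORE and 1.79% the cyclic AMP response element. A match is a run of letters and was not tested as a binding site, and a window without one says only that these letters are not in it.

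Of the activators, Clock was the more abundant. Clock (ENSMUSG00000029238, chromosome 5 of GRCm38, 76209868 to 76304792, minus strand), which encodes a bHLH-PAS factor with histone acetyltransferase activity, had 46.9, 41.4 and 47.4 CPM on plate 1 and 60.4, 40.9 and 59.8 CPM on plate 2. Arntl (ENSMUSG00000055116, chromosome 7, 113207465 to 113314126, plus strand), its partner, had 5.21, 3.62 and 6.17 CPM on plate 1 and 8.15, 4.14 and 9.67 CPM on plate 2. Both genes were low in plate 1 replicate 2 and in library M, and the plates overlapped. Within a library, Clock exceeded Arntl by between 6.18 and 11.4 times. The difference of log2(CPM + 1) was -2.86 ± 0.24 (Arntl minus Clock, SD, n = 6) with Clock higher in 6 of 6 libraries (exact two-sided sign-flip permutation p = 0.03125, 0.0391 after Benjamini-Hochberg adjustment over 10 pairs).

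That p is the smallest that 6 libraries allow, and the test does not take into account that the wells of a plate share a passage. The other forms of the heterodimer were nearly undetected. Arntl2, a paralogue that can pair with CLOCK, had 3 to 19 counts and a mean of 0.407 CPM, and Npas2, a paralogue that can replace CLOCK, had 3 to 22 counts and a mean of 0.406 CPM. Arntl exceeded Arntl2 by 2.30 ± 0.55 and Clock exceeded Npas2 by 5.17 ± 0.19 on the log2(CPM + 1) scale (SD, n = 6), each in 6 of 6 libraries (exact permutation p = 0.03125, adjusted p = 0.0391). Both paralogues were at the limit of 3 counts in 1 library, so the size of these differences is set in part by the pseudocount of 1 CPM.

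The period genes lay within a narrow range of each other. Their products bind the cryptochromes and carry them into the nucleus to inhibit the heterodimer. Per2 (ENSMUSG00000055866, chromosome 1, 91415982 to 91459324, minus strand) had 9.04, 11.3 and 12.2 CPM on plate 1 and 16.3, 11.4 and 21.1 CPM on plate 2. Per1 (ENSMUSG00000020893, chromosome 11, 69095217 to 69109960, plus strand) had 11.04, 10.5 and 9.44 CPM on plate 1 and 10.2, 10.2 and 10.2 CPM on plate 2. Per3 (ENSMUSG00000028957, chromosome 4, 151003652 to 151044665, minus strand) had 7.502, 6.05 and 9.35 CPM on plate 1 and 10.7, 8.86 and 12.8 CPM on plate 2. In CPM, Per1 varied by 1.17 times from the lowest to the highest library, Per2 by 2.34 times and Per3 by 2.11 times. With TMM scaling Per1 varied by 1.32 times, Per2 by 1.95 times and Per3 by 1.71 times. Per2 and Per3 were both highest in the plate 2 library with the highest total.

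Per2 exceeded Per3 in every one of the 6 libraries, and the log2 difference was 0.49 ± 0.22 (SD, n = 6, exact permutation p = 0.03125, adjusted p = 0.0391). Per1 was not separated from either of them. Its difference from Per2 was -0.32 ± 0.44 (SD, n = 6, exact permutation p = 0.15625, adjusted p = 0.174) and ran from -0.98 to 0.26 over the libraries, with a mean of -0.058 on plate 1 and -0.58 on plate 2. Without the plate 2 library with the highest total it was -0.19. Its difference from Per3 was 0.17 ± 0.37 (SD, n = 6, exact permutation p = 0.34375 before and after adjustment) and ran from -0.30 to 0.70, with a mean of 0.41 on plate 1 and -0.061 on plate 2. Omitting plate 1 replicate 1 gave 0.11, omitting plate 1 replicate 2 gave 0.067, and omitting the deepest plate 2 library gave 0.27.

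The cryptochromes, which are the main repressors of the heterodimer, were ordered alike in each library. Cry1 (ENSMUSG00000020038, chromosome 10, 85131700 to 85185064, minus strand) had 11.3, 14.1 and 11.2 CPM on plate 1 and 17.4, 19.1 and 15.8 CPM on plate 2. Cry2 (ENSMUSG00000068742, chromosome 2, 92403646 to 92434043, minus strand) had 4.79, 5.88 and 5.47 CPM on plate 1 and 6.87, 8.38 and 8.69 CPM on plate 2. Neither gene overlapped between plates on this scale, with plate 2 higher, as for 35.2% of all genes, and both overlapped with TMM scaling. Cry1 exceeded Cry2 by 1.81 to 2.53 times within a library, or by 1.04 ± 0.16 on the log2 scale (SD, n = 6) in 6 of 6 libraries (exact permutation p = 0.03125, adjusted p = 0.0391). This difference was 1.04 on either plate.

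The REV-ERB receptors differed most among the pairs of members. Nr1d2 (ENSMUSG00000021775, chromosome 14, 18204054 to 18239127, minus strand), which encodes REV-ERB beta, had 49.1, 46.9 and 52.2 CPM on plate 1 and 68.6, 69.6 and 81.6 CPM on plate 2. Nr1d1 (ENSMUSG00000020889, chromosome 11, 98767932 to 98775333, minus strand), which encodes REV-ERB alpha, had 3.88, 4.11 and 3.22 CPM on plate 1 and 4.02, 3.17 and 4.19 CPM on plate 2. The plates did not overlap for Nr1d2, with plate 2 higher as for 35.2% of all genes, and overlapped for Nr1d1. Nr1d2 exceeded Nr1d1 by between 11.4 and 21.9 times within a library, and the log2 difference was -3.68 ± 0.34 (Nr1d1 minus Nr1d2, SD, n = 6) with Nr1d2 higher in 6 of 6 libraries (exact permutation p = 0.03125, adjusted p = 0.0391). The last exon of Nr1d1 shares 263 bases with exons of Thra on the opposite strand. Thra, a thyroid hormone receptor gene, had 47.5 ± 6.11 CPM (SD, n = 6), and whether the authors' counting used strand is not given in the sources used here.

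Dbp (ENSMUSG00000059824, chromosome 7, 45705088 to 45710203, plus strand), which encodes a PAR bZIP factor, had 20.6, 23.8 and 20 CPM on plate 1 and 27.4, 19.4 and 27.5 CPM on plate 2. Library M was the lowest of all, and the plates overlapped. Dbp shares 539 bases of exons, in the last exons of its transcripts, with Sphk2 on the opposite strand, and Sphk2 had 24.2 ± 4.78 CPM (SD, n = 6). Of the other PAR bZIP genes, whose products bind the same D-boxes, Tef was higher than Dbp and Hlf lower, each in 6 of 6 libraries. The difference was -1.38 ± 0.31 for Dbp minus Tef and 0.93 ± 0.17 for Dbp minus Hlf on the log2 scale (each SD, n = 6, exact permutation p = 0.03125, adjusted p = 0.0391). In library M, Tef was at its highest at 77.9 CPM and Hlf at its lowest at 7.57 CPM.

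**Figure D2:**
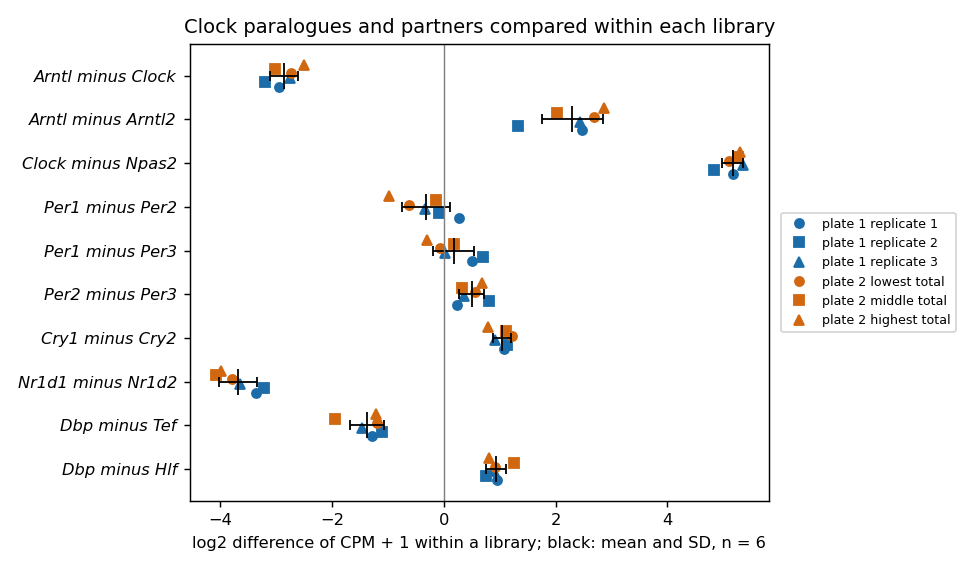
Difference of log2(CPM + 1) between the genes of 10 pairs within each of 6 libraries (blue for plate 1, orange for plate 2), with the mean and SD in black. All libraries lie on one side of 0 for 8 pairs, and only Per1 against Per2 and Per1 against Per3 have libraries on both sides.

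Placed in order of the mean, the members ran Nr1d2, Clock, Dbp, Cry1, Per2, Per1, Per3, Cry2, Arntl and Nr1d1. Nr1d2 over Clock, Clock over Dbp, Dbp over Cry1 and Per3 over Cry2 held in 6 of 6 libraries. The smallest gap among these libraries was 0.018 on the log2 scale, for Dbp over Cry1 in library M. Neighbours whose order was not the same in every library were Cry1 and Per2 (4 of 6), Per2 and Per1 (5 of 6), Per1 and Per3 (4 of 6), Cry2 and Arntl (2 of 6) and Arntl and Nr1d1 (5 of 6). The order of these neighbours is not resolved beyond the spread between libraries, although Cry1 exceeded Per1 and Per3, and Per2 exceeded Per3, in 6 of 6. Summed by role, the activators had 55.6 ± 10.9 CPM, the period genes 33.0 ± 6.46 CPM, the cryptochromes 21.5 ± 4.66 CPM and the REV-ERB receptors 65.1 ± 14 CPM (each SD, n = 6).

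Library to library, Arntl varied most and Per1 least, with SDs of log2(CPM + 1) of 0.47 and 0.067. With TMM scaling these SDs were 0.40 and 0.16, and that of Per1 was then close to those of Nr1d1 and Nr1d2 (each 0.18). The median SD of the 10 members was 0.30, beside 0.26 over the same 12360 genes. Over 9501 genes that passed the expression filter and had an SD of at least 0.5 times that of Arntl, those whose profile over the 6 libraries lay closest to it were Uso1, Impact and Rsrp1, with root mean square differences of 0.0422, 0.0525 and 0.0689 on the log2 scale. Among the members, Per3 was nearest to Arntl at 0.198, at rank 491, and Clock followed at 0.222, at rank 797. These distances describe 6 libraries in which depth and passage go with the plate.

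In library M, Arntl, Per2, Clock and Dbp were the members furthest below the other plate 2 libraries. Between library M and the mean of those libraries, the difference of log2(CPM + 1) was -0.94 for Arntl and -0.66 for Per2. It was -0.54 for Clock, -0.48 for Dbp, -0.37 for Per3, -0.29 for Nr1d1, -0.10 for Nr1d2 and -0.0023 for Per1. It was positive for Cry1 (0.20) and Cry2 (0.10). Over all libraries, Per2 was lowest in plate 1 replicate 1 and not in library M. Over the 12360 genes the median of this difference was -0.022, and its 5th and 95th percentiles were -1.14 and 0.53, between which all 10 members fell.

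Between the plates, the only contrast that the labels hold, no clock gene passed the threshold. With TMM scaling, 6 of the 10 genes had a positive log2 fold change on plate 2 and 4 a negative one. Over the 15669 genes tested, 54.1% were positive. The median was 0.24 for the 10 genes, beside 0.031 over all genes tested. The adjusted p lay between 0.257 and 0.969 (edgeR's quasi-likelihood test, Benjamini-Hochberg over all genes tested, 3 libraries against 3). None of the 10 was called, and 0.185% of all genes tested were. At an unadjusted p under 0.05 there was 1 member, Nr1d2, where 16.1% of all genes tested were under it. DESeq2, which called 4.41% of its genes, and limma-voom, which called 30 of 15669, called 0 of the 10.

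Nr1d2 had the smallest adjusted p of the members. Its mean was 49.4 ± 2.67 CPM on plate 1 and 73.3 ± 7.23 CPM on plate 2 (each SD, n = 3), and its log2 fold change was 0.30 with a standard error of 0.12 (edgeR, adjusted p = 0.257). Over 12 alternatives its fold change ran from 0.22 to 0.57 and its adjusted p from 0.0327 to 0.577. Per2 had a fold change of 0.32 (standard error 0.23, edgeR adjusted p = 0.546), which was 0.082 without the plate 2 library with the highest total, 0.20 without plate 1 replicate 1 and 0.49 without library M. Arntl, at 0.29 (standard error 0.32, edgeR adjusted p = 0.717), ran from 0.029 to 0.53 on leaving out a library, with the same plate 2 libraries at the ends. Per1 had a fold change of -0.29 (standard error 0.15, edgeR adjusted p = 0.399) and ran from -0.36 to -0.24 on leaving out a library. Scaled to the library total alone, the fold change of Per1 was only -0.016. The changes of Clock and Dbp were -0.021 and -0.066, and both turned positive without library M (0.10 and 0.045). Clock also turned positive without plate 1 replicate 1 (0.0017), and Dbp without plate 1 replicate 2 (0.035).

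The fold changes depended on the scaling. Without scaling beyond the total, the median log2 fold change of all genes was 0.30. Under that scaling 9 of the 10 members were positive, beside 80.5% of all genes tested. Clock at 0.25, Dbp at 0.21 and Nr1d1 at 0.023 were among them. Nr1d2 was called at 0.57 (edgeR, adjusted p = 0.0327), where 9.46% of all genes were called. The CPM of Cry1, Cry2 and Nr1d2 did not overlap between plates, with plate 2 higher, as was the case for 35.2% of all genes. No member was lower on plate 2 without overlap, against 4.00% of all genes. With TMM scaling, the plates did not overlap for Nr1d2, at 52.9 to 56.0 on plate 1 and 61.6 to 74.3 on plate 2, among 12.8% of all genes with plate 2 higher. Per1 then did not overlap in the other direction, at 10.1 to 12.1 on plate 1 and 9.18 to 9.46 on plate 2, among 12.0% of all genes. The 3 of 10 members without overlap in CPM, and the 1 of 10 in either direction with TMM scaling, are thus close to the shares over all genes.

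**Figure D3:**
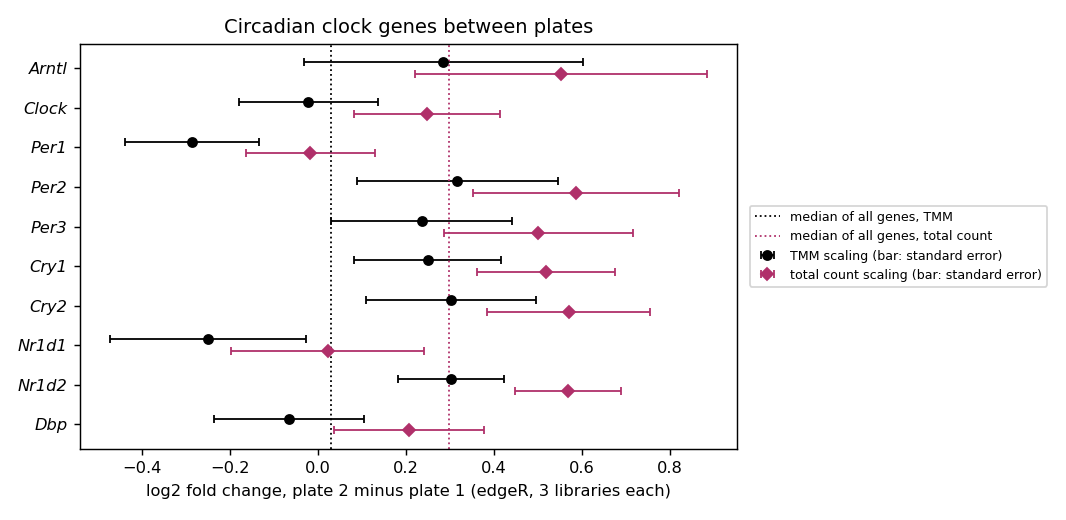
Log2 fold change of each clock gene on plate 2 against plate 1 (edgeR, 3 libraries each) with its standard error, under TMM scaling in black and total count scaling in magenta, and the median of all genes tested as dotted lines. Total count scaling moves all 10 genes to the right, by about as much as it moves the median of all genes from 0.031 to 0.30.

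Of the 24 other genes of the pathway list, 21 were expressed highly enough to be tested between plates. Of these, 10 had a positive and 11 a negative log2 fold change, beside 54.1% positive over all genes tested. None of the 21 passed the threshold with edgeR, and 3 of 21 had an unadjusted p under 0.05, beside the 16.1% of all genes. limma-voom also called 0, beside 30 of all 15669 genes tested, and DESeq2 called 1, Ciart, beside 4.41% of all genes.

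By role, Rora and Rorb, which encode receptors that compete with REV-ERB receptors at ROREs such as that of Arntl, were close to the floor. Rora had 0 to 6 counts and Rorb 0 to 4 counts. Rorb was at 0 in 4 libraries and Rora in 2. The limit of 3 counts that a 0 leaves room for is 0.0822 to 0.140 CPM, depending on the library.

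Kinases that phosphorylate clock proteins were abundant, with Gsk3b at 145 ± 27.2 CPM, Csnk1d at 99.98 ± 14.6 CPM and Csnk1e at 87.2 ± 8.18 CPM (each SD, n = 6). Among the ubiquitin enzymes, Fbxw11, a ligase subunit acting on period proteins, was highest with 36.7 ± 5.54 CPM (SD, n = 6), and Fbxl21, a ligase subunit acting on cryptochromes, was lowest with 0 to 13 counts. Tef was the highest and Nfil3, a repressor at D-boxes, the lowest of the bZIP genes, at 61.5 ± 9.83 and 5.83 ± 0.639 CPM (each SD, n = 6). Of the partners, Noct, which encodes the rhythmically expressed phosphatase nocturnin, was highest with 467 ± 176 CPM and Timeless lowest with 28.0 ± 6.32 CPM (each SD, n = 6).

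**Figure D4:**
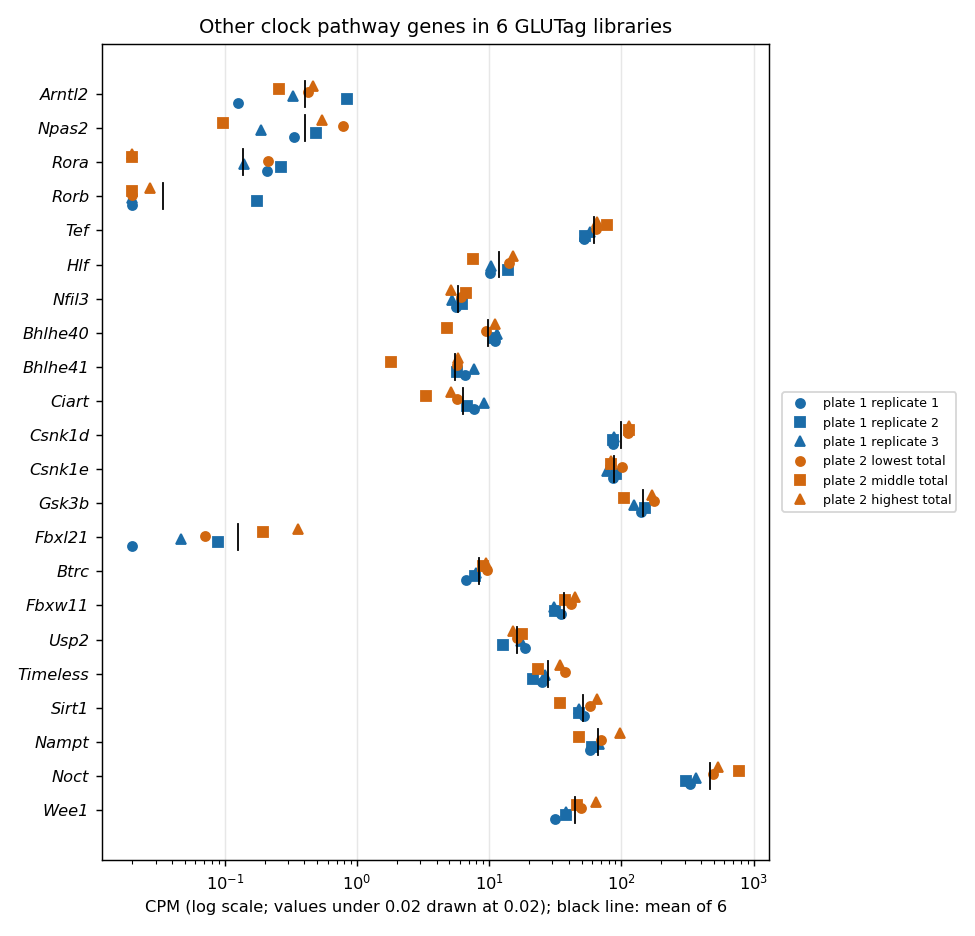
Level of other clock pathway genes in CPM (log axis) in each of 6 libraries, with plate 1 in blue, plate 2 in orange, the mean as a black line and values under 0.02 CPM drawn at 0.02. Rora, Rorb, Arntl2, Npas2 and Fbxl21 lie under 1 CPM in every library, and Noct lies above 300 CPM in every library.

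Repressors that act at E-boxes next to the period proteins and cryptochromes had lower mean levels on plate 2. Ciart, which encodes the repressor CHRONO, had 7.63, 6.76 and 9.07 CPM on plate 1 and 5.73, 3.33 and 5.18 CPM on plate 2, without overlap. Bhlhe40 had 11.1, 10.8 and 11.4 CPM on plate 1 and 9.51, 4.76 and 11.1 CPM on plate 2. Bhlhe41 had 6.50, 5.74 and 7.71 CPM on plate 1 and 5.70, 1.81 and 5.76 CPM on plate 2. All 3 genes were lowest in library M. By the difference of library M from the other plate 2 libraries, Ciart lay at percentile 15.9 of the 12360 genes. Bhlhe40 lay at percentile 7.09 and Bhlhe41 at 4.01. On the CPM scale the plates overlapped for Bhlhe40 and Bhlhe41. On that scale 1 of 21 pathway genes, Ciart, was lower on plate 2 without overlap, against 4.00% of all genes, and with TMM scaling these 3 of 21 were, against 12.0%.

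With TMM scaling the log2 fold changes were -0.99 (standard error 0.23, adjusted p = 0.118) for Ciart, -0.66 (standard error 0.27, adjusted p = 0.279) for Bhlhe40 and -0.86 (standard error 0.39, adjusted p = 0.325) for Bhlhe41 by edgeR. Ciart passed the threshold with DESeq2 at -1.01 (adjusted p = 0.00868, 4.41% of all genes called) and with edgeR without a filter on low counts at -0.97 (adjusted p = 0.0118, 2.02% of all genes called). Without library M it was -0.82 (edgeR, adjusted p = 0.0130), in a fit that called 12.0% of all genes and none of the 10 members. Bhlhe40 and Bhlhe41 moved to -0.41 and -0.52 in that fit.

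Noct went the other way. It had 331, 307 and 366 CPM on plate 1 and 492, 774 and 534 CPM on plate 2, without overlap, among 6 of 21 pathway genes with plate 2 higher in CPM, against 35.2% of all genes, and peaked in library M. Its log2 fold change was 0.58 (standard error 0.18, edgeR adjusted p = 0.174) with all libraries. With total count scaling it was 0.84 (edgeR adjusted p = 0.0322), where 9.46% of all genes were called. Noct was also called without a filter on low counts (0.60, edgeR adjusted p = 0.0144, 2.02% of all genes called). Without library M its fold change was 0.31 (edgeR, adjusted p = 0.0386), in the fit that called 12.0% of all genes. The part of this library in the differences of Ciart and Noct was not tested beyond its omission.

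**Figure D5:**
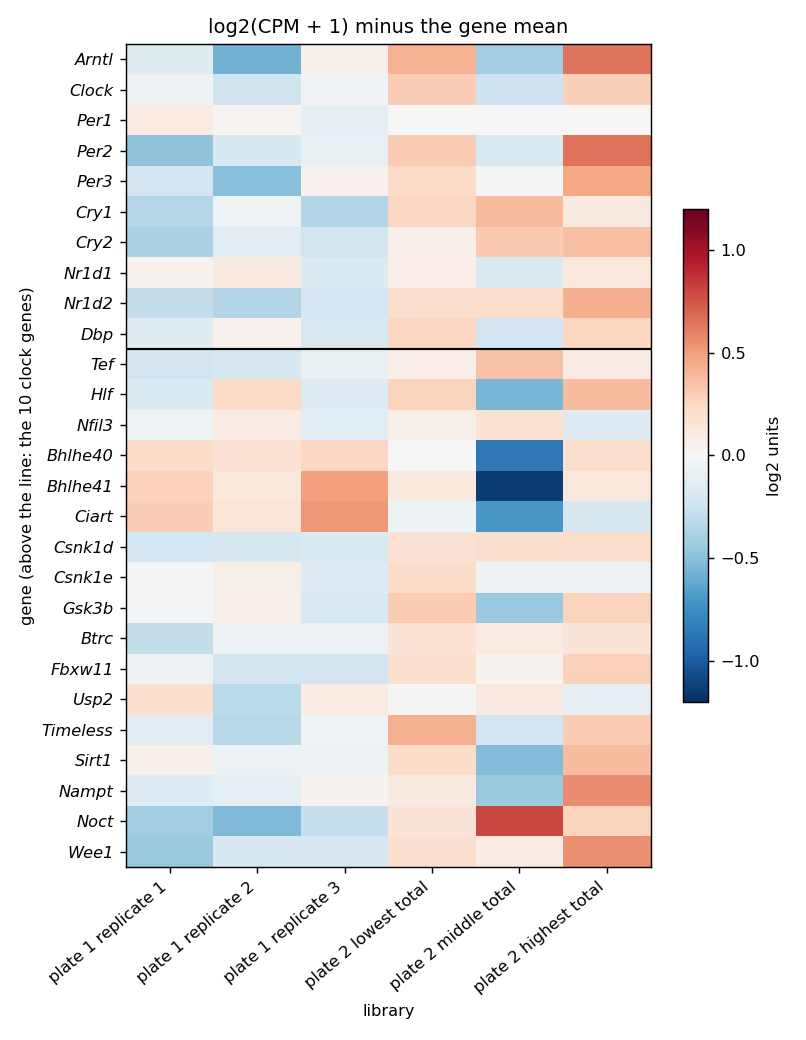
Deviation of log2(CPM + 1) from the gene's mean in each of 6 libraries (red higher, blue lower) for the 10 clock genes, above the line, and for pathway genes averaging 1 CPM or more. Library M, the column of the middle total of plate 2, is blue for Bhlhe40, Bhlhe41 and Ciart and red for Noct, and Per1 is nearly white throughout on this scale.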

How the data were processed

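Libraries from 6 GLUTag wells were prepared from polyadenylated RNA with a forward-stranded 3′ mRNA kit. The authors trimmed reads with Trim Galore 0.6.4 and quantified them with Salmon 1.5.1 against GENCODE M23 transcripts, with the GRCm38 genome as decoy. Length was not corrected for, and Tximeta gave sums by gene. The authors deposited these sums unscaled, and each is an estimated count, which need not be a whole number.

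CPM was taken over the column total of unrounded values. GENCODE M21 gave positions on GRCm38 and symbols for 54107 identifiers. Gene pairs were compared within libraries as differences of log2(CPM + 1), with a pseudocount of 1 CPM, by an exact sign-flip permutation test. For the plate comparison, rounded counts of 15669 genes kept by filterByExpr entered a robust quasi-likelihood test in edgeR 4.0.16 with TMM factors, and an adjusted p under 0.05 was called. Alternatives were DESeq2 1.42.0, limma-voom (limma 3.58.1), other scalings, filters and pseudocounts, and the omission of each library. R 4.3.3, Python 3.11.15 and scipy 1.17.1 were used. The fits and tests were tested on simulated data.

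The members, the pathway list and the pairs were chosen with earlier results of these data known. Named are the members, the highest and lowest pathway gene of each role, genes whose exons overlap those of members, and the 3 genes with profiles nearest to that of the most variable member. Values of some genes of the pathway list are not reported here. Plate values of Ciart, Noct, Bhlhe40 and Bhlhe41 were singled out after they were seen. The p-values measure the spread between wells, which may be technical.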

Additional observations from a re-analysis of the deposited data

Results flagged for a closer look

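The spread over the 6 libraries was examined for 41 values, namely the CPM of clock and pathway genes with 10 or more counts on average and the pair differences. In 2 of them, a single library lay far from its nearest neighbour relative to the full range (Dixon's ratio, 95% limit), and chance gives about 1 in 20. Library M of plate 2 was that library both times. Bhlhe40 was at 4.76 CPM in it and at 9.51 to 11.4 CPM elsewhere, a ratio of 0.715. Its mean changed from 9.78 to 10.8 CPM on leaving library M out. Bhlhe41 was at 1.81 CPM in it and at 5.70 to 7.71 CPM elsewhere, a ratio of 0.659, and its mean changed from 5.54 to 6.28 CPM. None of the 10 members was found this way.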

How the results depend on the processing

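Member levels shifted by less than the SD of the libraries with TMM or DESeq2 size factors, and by arithmetic on leaving out any one library. Of the 100 alternative values for pair differences, 1 changed sign, Per1 and Per3 on plate 2 alone (-0.061). Pseudocounts of 0.1 and 5 CPM cannot change which gene of a pair is higher and left each p as it was, but they moved Arntl minus Arntl2 to 3.68 and 1.02, and 5 CPM moved Clock minus Npas2 to 3.32. With 5 libraries the exact permutation test cannot go below p = 0.0625. The plate comparison called 29 genes of the whole table, 584 with DESeq2, 545 with no filter, 1482 with total count scaling, and between 0 and 1911 on leaving out a library. The 1911 came without library M, and 0 without plate 1 replicate 1 (1611 at an unadjusted p under 0.05) or without the shallowest plate 2 library (2121). The edgeR calls numbered 2 and 6 without plate 1 replicates 2 and 3, and 9 without the deepest plate 2 library. Members called were 0 in all fits but total count scaling, with 1 (Nr1d2), beside 9.46% of all genes. Pathway genes called were 1 with DESeq2, beside 4.41% of all genes. They were 2 of 21 with total count scaling, beside 9.46%, and 2 with no filter, beside 2.02%. On leaving out a library they were 0 to 2. The 2 came without library M, where 12.0% of all genes were called. Members whose fold change turned positive with total count scaling were Clock (0.25), Nr1d1 (0.023) and Dbp (0.21), and 7 of 21 pathway genes did so too (0.0049 to 0.21). On leaving out a library Clock ran from -0.11 to 0.10 and Dbp from -0.15 to 0.045. The cause was not tested. No paired analysis was possible because the sample labels number the wells 1 to 3 on plate 1 and 4 to 6 on plate 2. The table numbers its plate 2 columns from 1 again, and nothing ties those numbers to plate 1 wells.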
